A study of Mus musculus with 5 samples.

Results

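The stretch of chromosome 2 around Wt1 was examined by promoter capture Hi-C in mouse Sertoli cells (which nurse germ cells in the testis) and in their fetal ovarian counterparts, pre-granulosa cells. The genes followed were Wt1, Ccdc73, Eif3m, Prrg4, Rcn1 and Qser1, all on chromosome 2 around Wt1. They were chosen by name with earlier results of these tables known, and every interaction in the tables had itself been selected on a score of at least 5 in at least 1 of the cell types. Cis interactions on chromosome 2 were kept where either end carried a symbol of these 6 genes, or where either end reached into the window chr2:104900000-105300000 (build mm10, per the submitters' processing notes). This gave 48 of 29421 cis interactions for the original baits and 59 of 51524 for the extended baits, which have a table each. For these 6 genes 0 interactions with another chromosome were listed.

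The Sertoli cells came from embryos carrying the Sox9IRES-GFP reporter and the pre-granulosa cells from embryos carrying the Enh8-mCherry reporter, both sorted from gonads at E13.5 (days of embryonic development). There were 3 Sertoli libraries and 2 pre-granulosa libraries, made from 100000 sorted cells each. The labels do not say whether the libraries came from separate animals, and the strain is not given in the sources used here. Each table holds 1 score column per cell type with all of its libraries behind it, so no value below has a replicate error, no test between the cell types was possible, and read depth is unknown. The tables hold no expression values, so the sorted cells could not be checked against marker genes.

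In capture Hi-C, chromatin is crosslinked, cut (here with DpnII) and ligated, and products holding a chosen fragment, called a bait, are then enriched. Each bait, named after the transcripts at whose promoter it lies, is paired with an other end, a bin of about 5 kb. The score is that of CHiCAGO, which weighs the read pairs of bait and other end against a background that declines with distance. An interaction is called in a cell type here at a score of at least 5. In the original table a bait is a single restriction fragment, while in the extended table it is a whole bin, so that 2 promoters can be paired with each other. Distances are signed, negative towards Qser1 (lower coordinates) and positive towards Rcn1.

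Wt1 encodes a zinc finger transcription factor that is required for the early gonad and kidney to form, and it is expressed in the supporting cells of both sexes. Its antisense neighbour Wt1os is a long non-coding RNA gene that starts beside the Wt1 promoter and runs away from it. Eif3m encodes a subunit of the translation initiation factor eIF3, a complex that every cell uses. Contacts between a promoter and distant DNA can differ between cell types, and neighbouring promoters can contact the same stretch.

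In RefSeq (GRCm38.p6, the assembly that mm10 names), Wt1 runs from 105126529 to 105173614 and Wt1os from 105076538 to 105126510. On the lower-coordinate side lie Eif3m (104999656 to 105017027), Ccdc73 (104886324 to 104999737), Prrg4 (104830741 to 104849872) and Qser1 (104754793 to 104818680). On the other side lie Them7 (105224342 to 105379860), a member of the thioesterase superfamily, and Rcn1 (105385948 to 105399319), which encodes a calcium-binding protein of the endoplasmic reticulum. The bait of Wt1-205, from 105125689 to 105126792, covers the starts of both Wt1 and Wt1os. The bait of Gm11060-201, from 105090839 to 105092702, lies inside the Wt1os gene body. The bait of Ccdc73-204 (104991625 to 104992323) lies within Ccdc73 near its end, and that of Eif3m-204 (105006088 to 105006848) lies within Eif3m.

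The RefSeq promoter table held 4 of the 6 genes, namely Ccdc73, Eif3m, Prrg4 and Qser1. The 250 bases before the annotated start are shown for Eif3m and Ccdc73, because their bait bins have other ends in common with a Wt1 bait. The Eif3m stretch (chr2:105017028-105017277, minus strand, GRCm38.p6) lies in the extended bait bin Eif3m-201, which contacted the Wt1-205 bin in Sertoli cells. The Ccdc73 stretch (chr2:104886074-104886323, plus strand) lies in the extended bait bin Ccdc73-201, which contacted the Ccdc73-204 bin with its higher score in pre-granulosa cells. Capitals mark GGGCGG on either strand (the letters of SP and KLF factors) and GATC (the DpnII site).
Eif3m: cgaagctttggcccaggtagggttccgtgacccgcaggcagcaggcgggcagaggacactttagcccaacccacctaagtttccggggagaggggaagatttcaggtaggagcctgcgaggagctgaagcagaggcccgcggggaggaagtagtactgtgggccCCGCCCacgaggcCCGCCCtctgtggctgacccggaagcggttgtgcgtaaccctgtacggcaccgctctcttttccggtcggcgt
Ccdc73: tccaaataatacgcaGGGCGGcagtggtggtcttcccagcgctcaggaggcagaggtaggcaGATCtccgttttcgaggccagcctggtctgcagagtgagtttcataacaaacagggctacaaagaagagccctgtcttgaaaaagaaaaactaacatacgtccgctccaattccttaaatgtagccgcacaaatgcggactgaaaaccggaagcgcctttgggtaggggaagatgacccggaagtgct

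The Eif3m stretch is 64.8% G and C and the Ccdc73 stretch 51.6%. Positions are counted back from the annotated start, with -1 as the base before it, and motifs were searched on both strands. GGGCGG was found on the minus strand of the Eif3m stretch as printed, at -86 to -81 and -73 to -68, and on the plus strand of the Ccdc73 stretch at -235 to -230. It is held by 32.7% of the 32851 RefSeq stretches of this length. GATC was found only in the Ccdc73 stretch, at -188 to -185, and is held by 41.9% of all stretches. CCCTC, part of the CTCF motif, was found 2 times in the Eif3m stretch and is held by 60.5%, with 1 of these matches overlapping a GGGCGG match. ACAAAG, which SOX factors bind, was found in the Ccdc73 stretch and is held by 16.5%. GATA was found in neither stretch, nor was the nuclear receptor motif AGGTCA or its longer form CAAGGTCA, nor the SOX letters ACAAT, nor the WT1-type letters GCGTGGG or the related GCGGGGG, nor the TATA box TATAAA.

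In the original table the locus was represented by 7 baits. Over their 48 interactions together, the cell types divided the calls more evenly than in the whole table. Much of this came from 1 bait, Ccdc73-204. It had 16 of the 48 interactions, with 14 pre-granulosa and 7 Sertoli calls. Its excess of pre-granulosa calls was among the earlier results with which the genes were chosen. Of the 48 interactions, 33 were called in Sertoli cells (68.8%, against a background of 79.5% of all listed cis interactions) and 27 in pre-granulosa cells (56.2%, background 42.0%). Both cell types called 12 (background 21.5%), Sertoli cells alone called 21 (background 58.0%), and pre-granulosa cells alone called 15 (background 20.5%). The table lists only interactions that reached 5 in a cell type, so these shares describe the listed rows and touching bins share signal. At a threshold of 7 the calls numbered 12 in Sertoli and 17 in pre-granulosa cells, and at 10 they numbered 5 and 6. With the Sertoli threshold raised until both cell types had equally many calls in the whole table, they numbered 15 and 27. Which cell type had more calls thus turned with the threshold. At 7, the Ccdc73 baits had 4 of the Sertoli and 9 of the pre-granulosa calls. Shares of the whole table at 7 and 10 are not given, so the turn is not read as a trait of this locus. The median absolute distance of the calls was 45.5 kb in Sertoli and 25.8 kb in pre-granulosa cells, close to the 42.6 and 25.1 kb of the whole table. At a threshold of 7 the medians of the locus were 15.4 and 17.7 kb.

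With the extended baits, the 59 interactions came from 13 baits, and 27 of them joined 2 promoter bins. Sertoli cells called 41 (69.5%, background 78.0%) and pre-granulosa cells called 39 (66.1%, background 56.3%). Both called 21 (background 34.3%), Sertoli cells alone 20 (background 43.7%) and pre-granulosa cells alone 18 (background 22.0%). Here too much of the difference from the background came from Ccdc73-204. It had 18 of the 59 interactions, with 7 Sertoli and 17 pre-granulosa calls. Single promoters of the locus differed in which cell type had more calls, which the drawing of called interactions shows for the original baits.

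**Figure D1:**
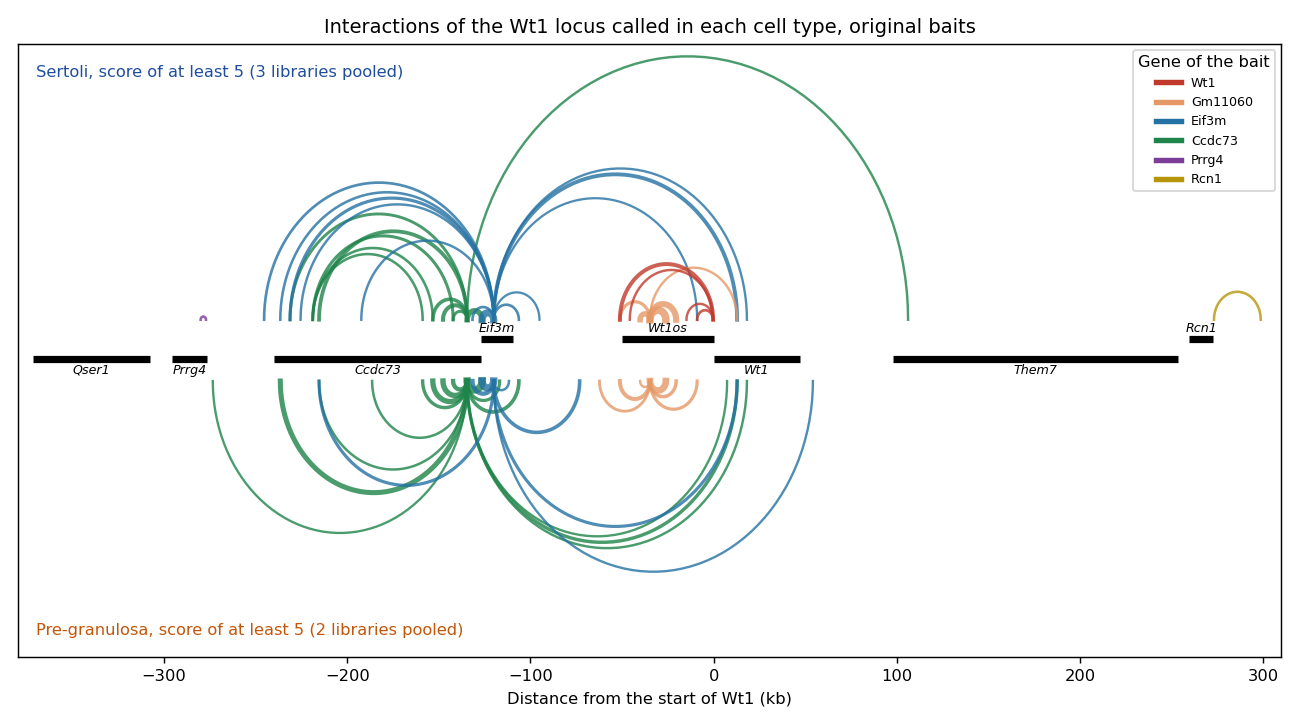
Interactions called at a score of at least 5 in Sertoli cells (arcs above) and pre-granulosa cells (arcs below), original baits, against the distance from the start of Wt1 in kb. Arc colour gives the gene of the bait, arc width the score, arc height the span, and black bars are RefSeq gene bodies. Wt1 arcs (4) appear above only, while Ccdc73 has 10 arcs above and 14 below. Of all listed cis interactions, 79.5% were called in Sertoli and 42.0% in pre-granulosa cells.

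Interactions called in 1 cell type had a wide range of scores in the other. Among the 21 Sertoli-only interactions, the pre-granulosa score reached 3 in 10 and stayed under 1 in 6. Among the 15 pre-granulosa-only ones, the Sertoli score reached 3 in 8 and stayed under 1 in 2. The same shares over all listed cis interactions are not given, so these counts describe the locus only. The lowest score that brought an interaction into the original table here was 5.04, for Eif3m-204 with the bin from 105114308 to 105120759 in Sertoli cells. The scores just short of a call were 4.88 and 4.84 in Sertoli cells, for Ccdc73-204 and Eif3m-204 with bins called in pre-granulosa cells. Beyond the window and the named genes, the nearest listed baits were Pax6-208 on one side, with scores of 11.3 in Sertoli and 5.28 in pre-granulosa cells, and D430041D05Rik-207 on the other, with 7.29 and 2.08.

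In the original table the 4 interactions of the Wt1 promoter bait were all called in Sertoli cells only (background 58.0%). Pre-granulosa cells called 0 of them (background 42.0%). Wt1-205 was listed with 4 bins, all on its negative side and all overlapping the Wt1os gene body. The strongest, from 105072726 to 105077996 at -50.9 kb, lies across the far end of Wt1os and had a score of 8.81 in Sertoli and 3.64 in pre-granulosa cells. The bin touching it, from 105077997 to 105083523, had 5.41 and 3.27. Nearer to the promoter, the touching bins from 105109127 to 105114307 and from 105114308 to 105120759 reached 5.40 and 6.14 in Sertoli cells, where pre-granulosa cells had 1.30 and 2.19. The Sertoli score was the higher one in 4 of 4 bins, as it was in 71.6% of all listed cis interactions of this table. The bins thus form 2 touching pairs, one towards the far end of Wt1os and one near the promoter, and only 1 of the 4 calls reached a score of 7.

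Extending the Wt1 baits to bins added contacts with other promoters and with them the first pre-granulosa calls. Wt1-205 kept the bins from 105072726 (8.88 in Sertoli cells, 3.40 in pre-granulosa cells) and 105077997 (5.26 and 3.06), while the other 2 bins, those near the promoter, were not listed with the extended bait. It also contacted the Gm11060-201 bin, from 105089250 to 105094478, at 7.46 in Sertoli and 7.31 in pre-granulosa cells. The neighbouring Wt1 bin of Wt1-207 and Wt1-201 (105126793 to 105131971) contacted the same Gm11060-201 bin, at 7.35 and 7.42. Both Wt1 bins therefore had this bin inside Wt1os in common, with nearly equal scores in the cell types.

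Contacts of the Wt1 bins with Eif3m were called in Sertoli cells only. Wt1-205 contacted the Eif3m-201 bin, which holds the Eif3m start, at -107.5 kb with scores of 8.80 in Sertoli and 1.41 in pre-granulosa cells. Wt1-207 and Wt1-201 contacted the Eif3m-204 bin at -123.7 kb with 9.97 and 3.27, the highest Sertoli score of any Wt1 interaction, and this contact was listed from the Wt1 end only. Over all 7 extended interactions with Wt1 at either end, Sertoli cells called 7 (background 78.0%) and pre-granulosa cells 2 (background 56.3%), which Sertoli cells called too (background of calls in both 34.3%). This count holds the contact of Wt1-205 with Eif3m-201 from both ends, Sertoli only each time and from the same libraries. With Wt1 as the bait, 6 interactions were listed, 6 called in Sertoli and 2 in pre-granulosa cells.

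Gm11060-201, the bait inside Wt1os, had calls in both cell types. In the original table it was listed with 7 bins, of which 5 were called in Sertoli cells (background 79.5%), 6 in pre-granulosa cells (background 42.0%) and 4 in both (background 21.5%). With the extended bait 5 of 6 were called in Sertoli cells (background 78.0%), 4 in pre-granulosa cells (background 56.3%) and 3 in both (background 34.3%), so which cell type had more calls turned with the bait design. The strongest original interaction was with the bin from 105097902 to 105103008, at 16.6 in Sertoli and 14.7 in pre-granulosa cells. The bins from 105103009 (13.6 and 7.80) and 105083524 (12.0 and 5.26) had the higher Sertoli scores, while the bins from 105072726 (7.17 and 8.91), 105114308 (4.37 and 7.09) and 105061283 (2.99 and 6.32) had the higher pre-granulosa scores. Its 1 contact with the Wt1 gene body in the original table, from 105136666 to 105142064 at 47.6 kb, was called in Sertoli cells only, at 5.33 against 0.94. The extended bait had 2 such contacts, also Sertoli only, at 5.22 against 0.69 and 5.59 against 1.64.

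**Figure D2:**
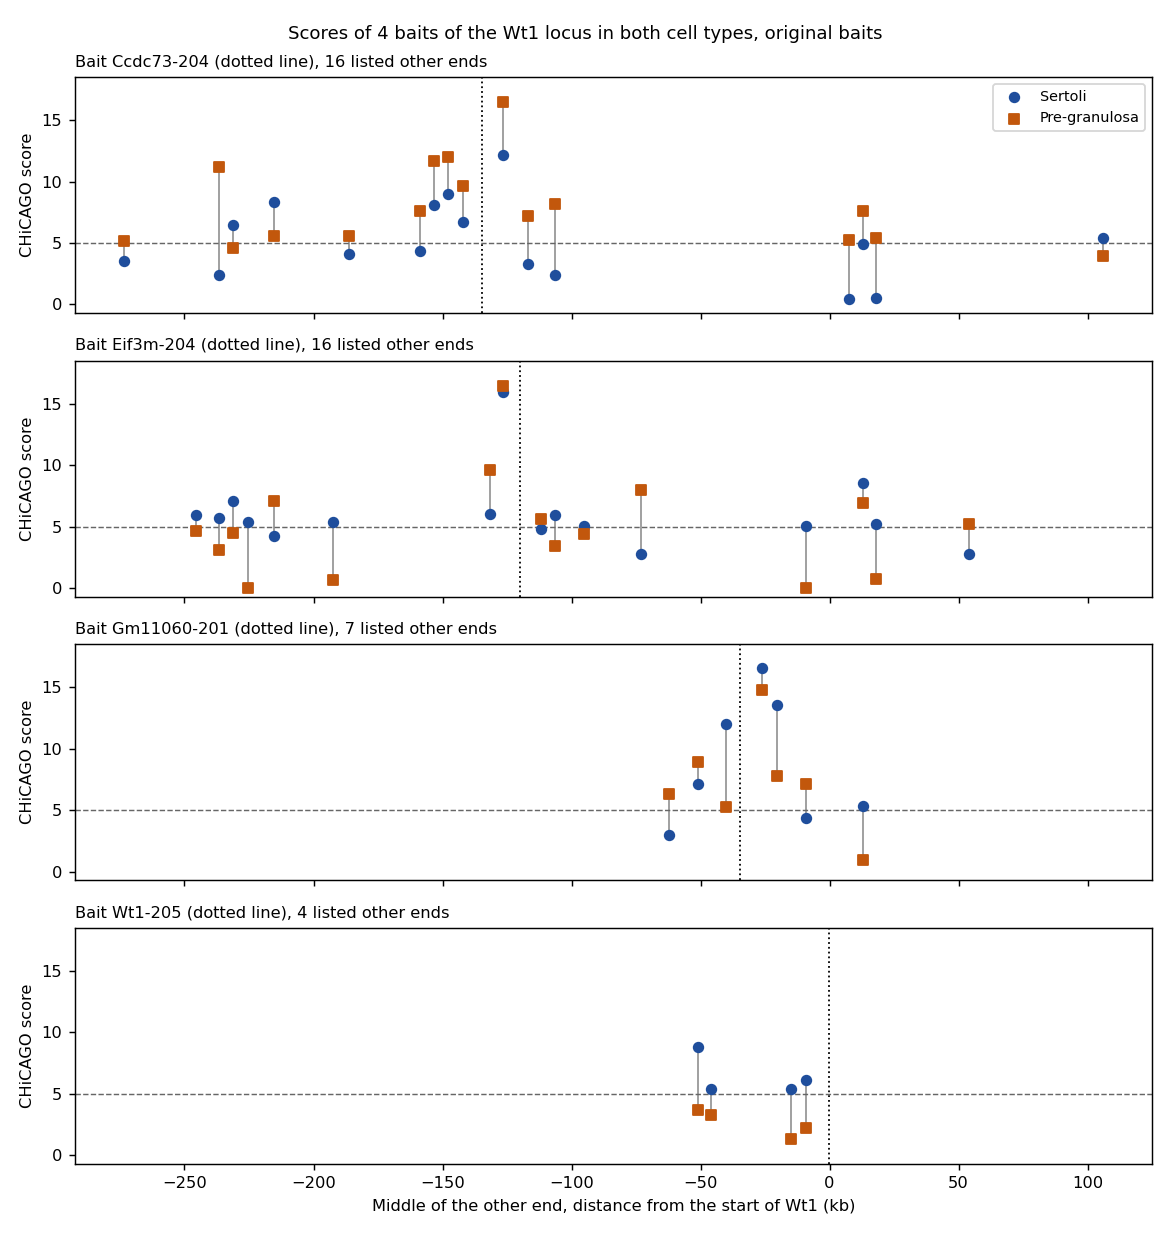
CHiCAGO scores of the 4 original baits that have bins in common with another gene, against the distance of the other end's middle from the start of Wt1 in kb. Circles are Sertoli and squares pre-granulosa scores of the same bin, joined by a line; the dotted line marks the bait and the dashed line the score of 5. Pre-granulosa scores were higher in 13 of 16 bins of Ccdc73-204, and Sertoli scores in 4 of 4 bins of Wt1-205, against 71.6% of all listed cis interactions with a higher Sertoli score.

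Ccdc73-204 leaned the other way. Of its 16 bins in the original table, pre-granulosa cells called 14 (background 42.0%) and Sertoli cells 7 (background 79.5%), with 5 called by both (background 21.5%), and the pre-granulosa score was higher in 13. Its median score was 7.39 in pre-granulosa and 4.62 in Sertoli cells. The excess of pre-granulosa calls at this bait was among the earlier results with which the genes were chosen, so its counts are a description. All 7 bins less than 50 kb from the bait had the higher score in pre-granulosa cells, and 4 of them were called in both cell types. The bin from 104997483 to 105002789, where Ccdc73 and Eif3m meet, had 16.4 in pre-granulosa and 12.2 in Sertoli cells. The touching bins from 104970580, 104975900 and 104981665, inside Ccdc73, had 11.7, 12.0 and 9.64 in pre-granulosa cells and 8.06, 8.98 and 6.68 in Sertoli cells.

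Other bins of Ccdc73-204 differed between the cell types in either direction. The bin from 104887435 to 104892505, just inside the annotated start of Ccdc73, lay at -102 kb and had 11.2 in pre-granulosa and 2.40 in Sertoli cells, the widest gap towards pre-granulosa cells at this bait. The bin beside it, from 104892506, had 4.56 in pre-granulosa and 6.50 in Sertoli cells, and the one from 104907852 had 5.56 and 8.32, the widest gap towards Sertoli cells. On the Eif3m side, the bin from 105017513 to 105022903 had 8.21 in pre-granulosa and 2.42 in Sertoli cells, and the bin from 105006849 had 7.21 and 3.33. The farthest contact, at 240.7 kb inside Them7, was called in Sertoli cells only, at 5.39 against 3.90.

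Ccdc73-204 was also listed with 3 touching bins inside the Wt1 gene, and pre-granulosa cells called all 3 (background 42.0%). The middle bin, from 105136666 to 105142064 at 147.4 kb, had 7.59 in pre-granulosa and 4.88 in Sertoli cells, just short of a call. The bins on either side had 5.21 and 5.44 in pre-granulosa cells and 0.45 and 0.52 in Sertoli cells. The same stretch was called from the extended bait (background 56.3%), at 5.43, 8.65 and 5.24 in pre-granulosa cells, with Sertoli scores of 0, 4.07 and 1.64. A listed 0 may be a value that could not be estimated.

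The other Ccdc73 baits had few listed interactions each. Ccdc73-205 had 3 in the original table, all called in Sertoli cells only (background 58.0%), with scores of 5.75, 5.86 and 6.78 against 3.56, 1.61 and 1.70 in pre-granulosa cells. These bins, from 104964795, 104970580 and 104981665, were also listed for Ccdc73-204. Of the extended baits, Ccdc73-202 contacted the Ccdc73-204 bin at 8.98 in Sertoli and 1.46 in pre-granulosa cells, while Ccdc73-201 contacted it at 5.03 and 10.8. Promoter bins of 1 gene therefore met the same bin with opposite order of the scores. Ccdc73-205 contacted the bin from 104890323 to 104895750 at 10.2 in pre-granulosa and 3.58 in Sertoli cells. All Ccdc73 baits of the extended table together had 25 interactions, 13 called in Sertoli (background 78.0%) and 22 in pre-granulosa cells (background 56.3%). Ccdc73-204 had 18 of these, with 7 Sertoli and 17 pre-granulosa calls, and Ccdc73-205 had 4, with 3 and 3. Ccdc73-201 had 2, each called in both cell types, and Ccdc73-202 had 1, called in Sertoli cells only.

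Eif3m-204 had as many listed bins as Ccdc73-204, with call shares near those of the whole table. Of its 16 bins, 12 were called in Sertoli cells (75.0%, background 79.5%), 7 in pre-granulosa cells (43.8%, background 42.0%) and 3 in both (18.8%, background 21.5%). The Sertoli score was higher in 10 of 16, against 71.6% of all listed cis interactions. The highest scores of both cell types were in the bin from 104997483 to 105002789, at 16.0 in Sertoli and 16.4 in pre-granulosa cells. This is the bin that also had the highest scores of Ccdc73-204. The bin from 105050577 to 105056224, between Eif3m and Wt1os, had the widest gap towards pre-granulosa cells, with 8.01 against 2.74. The widest gap towards Sertoli cells was at the bin from 104898073 to 104903986, inside Ccdc73, at 5.40 with pre-granulosa cells listed at 0.

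In or near Wt1 and Wt1os, Eif3m-204 was listed with 4 of its 8 bins on that side. The bin from 105136666 to 105142064, inside Wt1 at 132.9 kb, was called in both cell types, at 8.58 in Sertoli and 6.93 in pre-granulosa cells. The matching extended bin, from 105137184, was called in Sertoli cells only, at 6.32 against 4.66. The next bin of the gene body, from 105142065, had 5.24 and 0.71. The bin from 105114308 to 105120759, inside Wt1os, had 5.04 in Sertoli cells, with a listed 0 for pre-granulosa cells. The bin from 105178218 to 105183250, just beyond the end of Wt1, had 5.24 in pre-granulosa and 2.75 in Sertoli cells.

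With the extended baits, Eif3m-204 had 11 interactions, 10 called in Sertoli (background 78.0%) and 5 in pre-granulosa cells (background 56.3%). The bin from 104895751 to 104901837 had the widest gap towards Sertoli cells, at 7.85 against 0.65, and the bin from 105050879 kept a pre-granulosa score of 8.35 against 1.87. The Eif3m-201 bin, which holds the annotated start, was listed with 4 other ends. It met the Eif3m-204 bin at 9.0 in Sertoli and 15.2 in pre-granulosa cells and the Ccdc73-204 bin at 8.43 and 14.5. It also met the bin from 105072726 to 105077996 across the far end of Wt1os, at 1.94 and 5.36, and the Wt1-205 bin, at 5.69 and 0.80. The 2 Eif3m promoter bins thus scored higher in pre-granulosa cells towards Ccdc73-204 from one bin and higher in Sertoli cells from the other, since Eif3m-204 met the Ccdc73-204 bin at 17.1 in Sertoli and 10.1 in pre-granulosa cells.

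**Figure D3:**
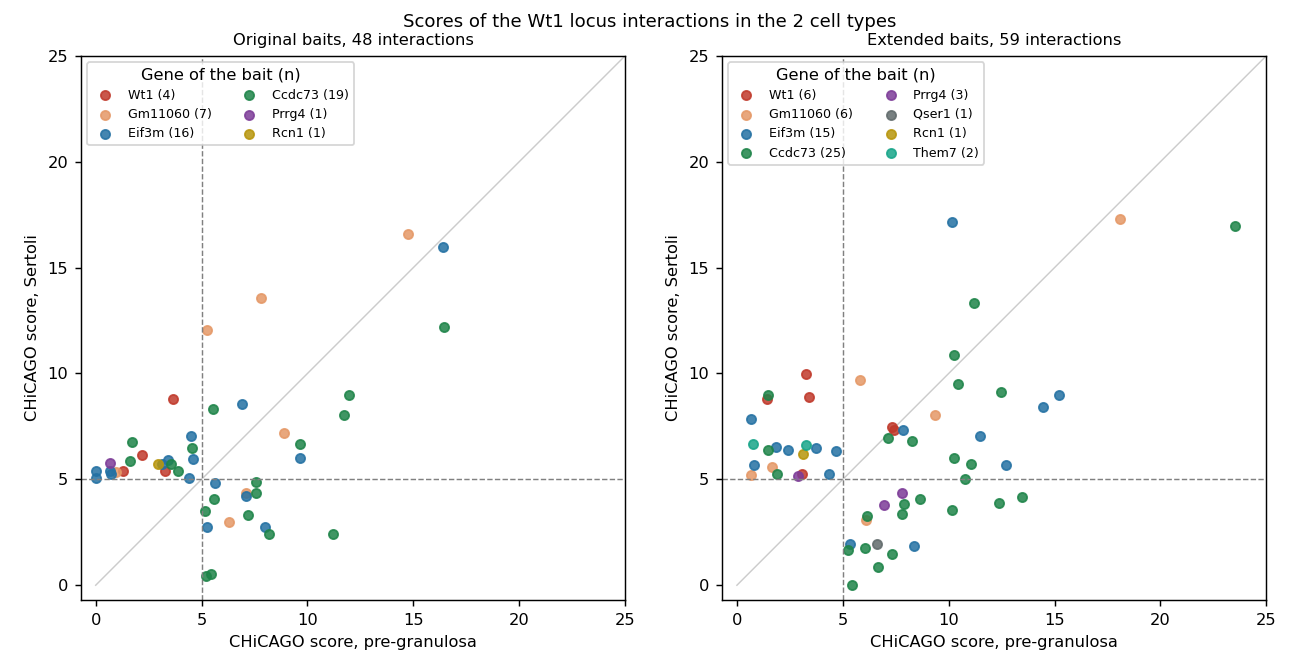
Sertoli score against pre-granulosa score of every interaction of the locus, with the original baits (48 points, left) and the extended baits (59 points, right), coloured by the gene of the bait. Dashed lines mark the score of 5 and the grey line equal scores; the empty lower left corner is set by the tables, which list only interactions that reached 5. Wt1 points lie above the line of equal scores in the left panel, and most Ccdc73 points lie below it in both.

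The outer genes had few interactions. Prrg4, which encodes a membrane protein with a Gla domain, had 1 interaction in the original table, of Prrg4-202 with the bin beside it at -2.91 kb, with 5.78 in Sertoli and 0.65 in pre-granulosa cells. Its extended bin had 3, all with promoter bins. It met Ccdc73-205 at 3.78 in Sertoli and 6.93 in pre-granulosa cells, Ccdc73-204 at 4.36 and 7.81, and Qser1-201 at 5.18 and 2.87. The contacts with Ccdc73 were thus called in pre-granulosa cells only, and the contact with Qser1 in Sertoli cells only.

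Qser1, whose protein has been linked to protection of promoters from DNA methylation, had interactions only with the extended baits. Qser1-201 (104815081 to 104820442) met Ccdc73-204 at 171.9 kb with 6.62 in pre-granulosa and 1.96 in Sertoli cells. Rcn1-201 had 1 interaction in each table, on the side away from Wt1, at 5.71 and 6.18 in Sertoli cells and 2.95 and 3.11 in pre-granulosa cells. Them7-201, in the window but not among the 6 genes, met Ccdc73-205 at -312.2 kb (6.66 in Sertoli, 0.77 in pre-granulosa cells) and Eif3m-204 at -216.5 kb (6.63 and 3.25). No listed interaction joined Rcn1 with Wt1 or with another of the 6 genes.

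Bins listed for promoters of more than 1 gene numbered 9 of the 34 distinct other ends in the original table, and 2 of these were listed for 3 genes. Ccdc73 and Eif3m had 7 bins in common, which is 43.8% of the bins of each. Wt1 had 2 bins in common with Gm11060 and 1 with Eif3m, out of its 4. With Ccdc73 it had 0 in common here, but 2 with the extended baits (of 5 Wt1 bins and 20 Ccdc73 bins), namely the Eif3m-204 and Eif3m-201 bins. Another 3 bins were listed for both Ccdc73-204 and Ccdc73-205. The adjacent genes Ccdc73 and Eif3m thus took part in most of the sharing, and they also had most of the listed interactions (19 and 16 of 48). The share of such bins over the whole table is not given, so these counts describe this locus only.

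The cell types differed in which of the sharing genes reached a call. Sertoli calls were also the more frequent ones over all listed cis interactions (79.5%, against 42.0% in pre-granulosa cells), so the counts of bins are a description only. In 5 of the 9 shared bins, at least 2 genes were called in Sertoli cells, in 3 at least 2 genes in pre-granulosa cells, and in 2 bins both held. Those 2 were the bin from 104997483 to 105002789 and the bin from 105136666 to 105142064 inside Wt1. In the latter, Eif3m-204 and Gm11060-201 were called in Sertoli cells and Ccdc73-204 and Eif3m-204 in pre-granulosa cells, the last of which was not called with the extended bait. The bin from 105114308 to 105120759, at -8.71 kb from the Wt1-205 bait, was listed for Wt1-205, Eif3m-204 and Gm11060-201. There the Sertoli calls were those of Wt1-205 (6.14) and Eif3m-204 (5.04), and the pre-granulosa call was that of Gm11060-201 (7.09).

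In the bins from 104887435, 105017513 and 105142065, the called gene changed with the cell type in the original table. Each was called for Eif3m-204 in Sertoli cells (5.72, 5.93 and 5.24) and for Ccdc73-204 in pre-granulosa cells (11.2, 8.21 and 5.44). The scores of the same bins from the opposite bait were 2.40, 2.42 and 0.52 for Ccdc73-204 in Sertoli cells and 3.13, 3.44 and 0.71 for Eif3m-204 in pre-granulosa cells. With the extended baits the Ccdc73-204 calls kept their cell type. The Eif3m-204 calls lay near the threshold, and only that at 105017513 had a matching extended interaction (6.47 in Sertoli, 3.76 in pre-granulosa cells). Over part of the first bin, the extended Ccdc73-201 bin met Eif3m-204 at 6.98 and 7.12, called in both cell types. The bin from 105072726, shared by Wt1-205 and Gm11060-201, was called for both in Sertoli cells (8.81 and 7.17) and for Gm11060-201 alone in pre-granulosa cells (8.91).

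**Figure D4:**
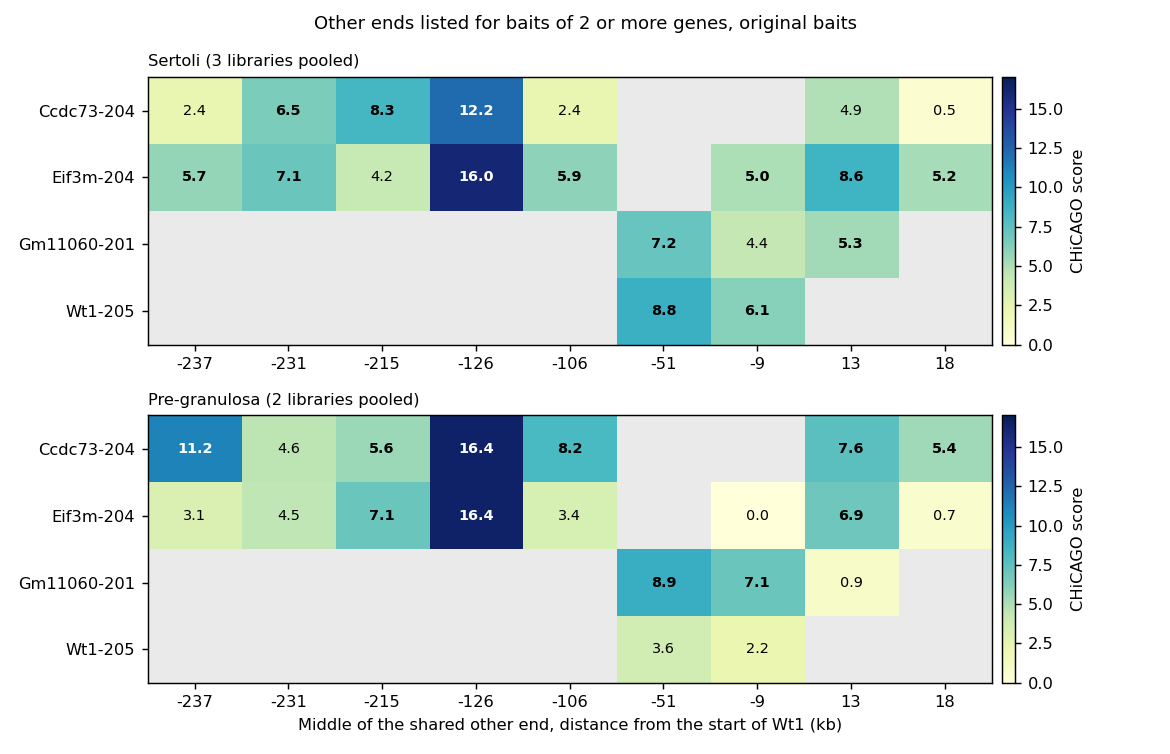
Scores of the 9 bins listed for baits of more than 1 gene, original baits, in Sertoli cells (top) and pre-granulosa cells (bottom); columns are bins by the distance of their middle from the start of Wt1 in kb, rows are baits, bold marks scores of at least 5 and grey marks pairs that are not listed. The bin at -126 kb was called for Ccdc73-204 and Eif3m-204 in both cell types, and the bin at 18 kb for Eif3m-204 in Sertoli and for Ccdc73-204 in pre-granulosa cells.

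The extended table had 10 such bins of 33, again without a share over the whole table, and 5 of the 10 were themselves promoter bins. The Ccdc73-204 bin was contacted by 7 baits of 4 genes (Ccdc73, Eif3m, Prrg4 and Qser1), 5 of them called in Sertoli (background 78.0%) and 6 in pre-granulosa cells (background 56.3%). The Eif3m-204 bin was contacted by 6 baits of 4 genes (Ccdc73, Eif3m, Them7 and Wt1), 6 called in Sertoli and 4 in pre-granulosa cells, beside the same background. Prrg4 and Qser1 thus appeared with the former and Wt1 and Them7 with the latter, although the bins lie only 16.0 kb apart. Interactions that reached the Wt1 gene body from another gene's bait numbered 8 with the extended baits. The 3 called in pre-granulosa cells (background 56.3%) were all of Ccdc73-204, and the 5 called in Sertoli cells (background 78.0%) were of Eif3m-204, Eif3m-201 and Gm11060-201, with 0 called in both (background 34.3%). The original table had 6 such interactions, 3 called in Sertoli (background 79.5%) and 4 in pre-granulosa cells (background 42.0%), with 1 in both (background 21.5%).

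Pairs of promoter bins scored from either end give 2 values for the same contact from the same libraries. Of the 27 promoter-to-promoter interactions of the locus, 9 pairs were listed from both ends, and another 9 interactions were listed from 1 end only. The latter include the contacts of both Wt1 bins with Gm11060-201 and that of Wt1-207 and Wt1-201 with Eif3m-204. The call was the same from either end in 7 of the 9, and in 0 was it Sertoli only from one end and pre-granulosa only from the other. Over the whole extended table, the call was the same in 75.9% of 9620 such pairs and opposite in 0.353%.

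Among these pairs, that of Eif3m-201 and Wt1-205 was called in Sertoli cells only from both ends, at 5.69 and 8.80, with pre-granulosa scores of 0.80 and 1.41. The pair of Qser1-201 and Ccdc73-204 was called in pre-granulosa cells only from both ends, at 6.62 and 6.67, with Sertoli scores of 1.96 and 0.87. That of Prrg4 and Ccdc73-204 was also called in pre-granulosa cells only from both ends, at 7.81 and 6.03, with Sertoli scores of 4.36 and 1.76. Both cell types called Ccdc73-205 with Ccdc73-204, Ccdc73-205 with Eif3m-204, Ccdc73-204 with Eif3m-204 and Eif3m-204 with Eif3m-201 from either end. In 2 pairs the Sertoli call depended on the end. Ccdc73-204 with Eif3m-201 had 4.15 with Ccdc73-204 as bait and 8.43 with Eif3m-201 as bait. Ccdc73-201 with Ccdc73-204 had 5.03 with Ccdc73-201 as bait and 1.47 with Ccdc73-204 as bait.

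**Figure D5:**
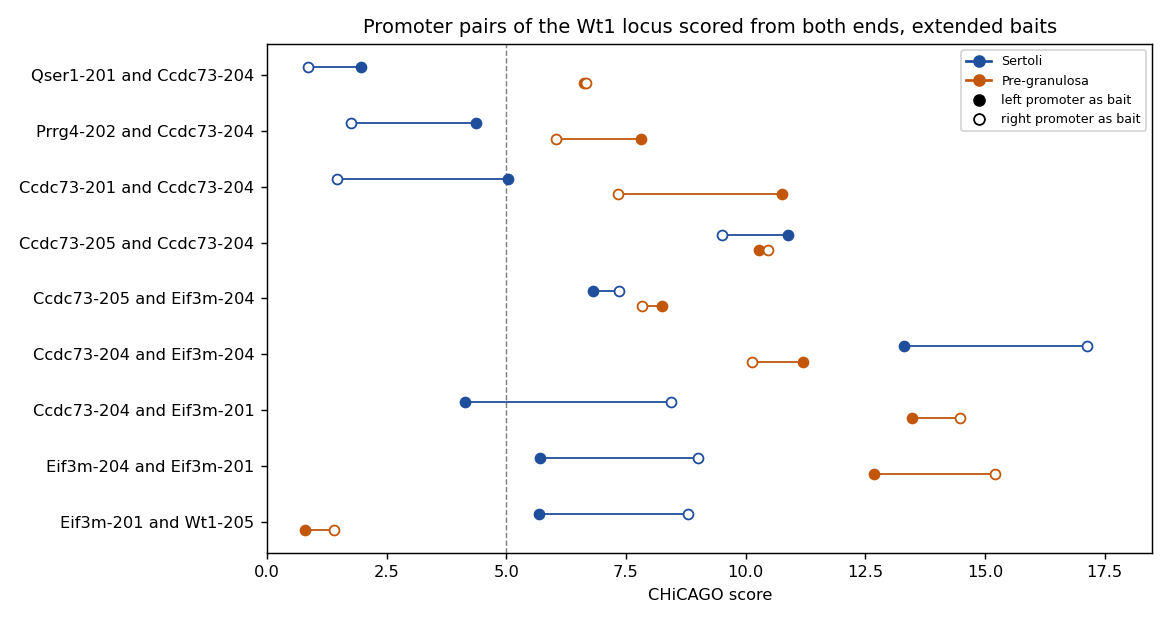
CHiCAGO scores of the 9 promoter pairs listed from both ends, extended baits; filled circles have the promoter named first as bait, open circles the one named second, and the dashed line marks the score of 5. Sertoli values of Eif3m-201 with Wt1-205 lie at 5.69 and 8.80 and the pre-granulosa values at 0.80 and 1.41, the only pair with both pre-granulosa values under 5.

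The 2 tables could be compared where the same transcript was paired with overlapping bins. For 29 of the 48 original interactions an extended one was listed with at least 50% overlap of the bins, and in 24 of the 29 the call was the same. The order of the scores in the cell types was the same in 26. An opposite call was found 1 time, for Ccdc73-204 near the start of Ccdc73, where the bin borders move. The original bin from 104892506 had 6.50 in Sertoli and 4.56 in pre-granulosa cells, and the extended bin from 104890323, which takes in part of the neighbouring bin, had 3.89 and 12.4. The 2 Wt1-205 interactions that could be compared were Sertoli only in both tables.

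Genes farther along chromosome 2 and a list of early gonad and WT1-linked genes give the setting. Of 19 names of flanking genes, 3 had a listed interaction with the original baits (Caprin1, Immp1l and Pax6), with 12 Sertoli and 3 pre-granulosa calls among 13 interactions (background 79.5% and 42.0%). Pax6, a transcription factor gene of eye and brain on the far side of Rcn1, had 1 interaction from each of 2 baits, at 11.3 in Sertoli and 5.28 in pre-granulosa cells for Pax6-208 and at 6.07 and 1.41 for Pax6-201. Of 26 genes listed for gonad formation, sex determination or a link to WT1, 5 had a listed interaction (Ctnnb1, Igf1r, Lhx9, Nphs1 and Nr5a1). They had 37 Sertoli and 11 pre-granulosa calls among 42 interactions, beside the same background. Most of these came from 2 baits of Ctnnb1, which encodes beta-catenin, with 23 and 10 interactions. In these lists 0 original baits had more pre-granulosa than Sertoli calls, but 4 extended baits did, namely Lhx9-203 with 3 against 1, the bin of Pax6-206 and Pax6-208 and that of Pax6-224 with 2 against 1 each, and Insr-201 with 1 against 0.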

How the data were processed

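Promoter capture Hi-C of 3 Sertoli and 2 pre-granulosa libraries had been turned by the authors into 2 deposited tables of CHiCAGO scores, per the file headers 1 score per cell type and interaction, with baits as DpnII fragments or as bins of about 5 kb. The bait-to-bin distance is also as deposited. The build is mm10, per the submitters' processing notes; aligner, versions and depth are not given in the sources used here. The 6 genes and both gene lists were chosen with earlier results of these data known. Interactions were selected by symbol and window, called at a score of at least 5, counted per bait, gene and bin, and compared between bait designs at 50% bin overlap. The text names the 6 genes, baits in the window and genes of the lists with listed interactions. The counting was tested on simulated tables. Thresholds of 7 and 10, the extended baits, minimum distances of 50 and 10 kb, equal numbers of calls and a limit of 3 in the other cell type were alternatives. Python 3.11.15, pandas 2.3.3, numpy 2.4.6 and matplotlib 3.10.9 were used.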

Additional observations from a re-analysis of the deposited data

How the results depend on the processing

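Of 84 values recomputed under another setting, 34 stayed within 1.5 times of the reported value and 50 moved by more; beyond what a stricter setting removes by construction, the cause was not tested. With a threshold of 7, calls in Sertoli cells, pre-granulosa cells and both numbered 12, 17 and 7 for the locus and 4, 9 and 3 for Ccdc73, and Wt1 kept 1 Sertoli call. With a threshold of 10 they were 5, 6 and 3 for the locus and 1, 4 and 1 for Ccdc73, and Wt1 had 0. At 50 kb or more they were 15, 10 and 2 for the locus and 6, 7 and 1 for Ccdc73, and Wt1 had 1 Sertoli call. The extended baits gave 21 calls in both for the locus, 2 pre-granulosa calls of Wt1, both shared (2), and 22 pre-granulosa and 10 shared calls of Ccdc73. With equal numbers of calls, Sertoli calls were 15 for the locus and 1 for Wt1. If the cell type without the call had to score below 3, Sertoli-only interactions fell to 11 and pre-granulosa-only ones to 7.

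Flanking genes had 5 Sertoli and 1 pre-granulosa calls at a threshold of 7, 3 and 0 at 10, 3 and 1 at 50 kb or more, 7 pre-granulosa calls with extended baits and 7 Sertoli calls with equal numbers. The list of early gonad and WT1-linked genes had 16 and 3 at a threshold of 7, 1 and 0 at 10, 57 and 24 with extended baits, and 18 Sertoli calls with equal numbers. Bins of more than 1 gene numbered 5 when called in Sertoli cells, 3 when called in pre-granulosa cells and 4 at a threshold of 7. The median distance of calls was 15.4 kb in Sertoli and 17.7 kb in pre-granulosa cells at a threshold of 7, so their order turned. At 10 kb or more it was 62.8 and 46.9 kb. No paired analysis was possible because each cell type has 1 score over all of its libraries, and no library could be left out for the same reason.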
